A study of Mus musculus with 143 samples.

Results

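Fos, Fosb, Jun, Junb, Egr1, Atf3, Ier2, Dusp1, Nr4a1 and Hspa1a were followed in sorted adipose stem cells (ASC), the stromal cells from which fat cells are formed. The first 9 are immediate early genes and Hspa1a encodes an inducible heat shock protein. The 10 genes were taken by name from the 53468 genes of the count table. Earlier results of these data were known when they were chosen, though no threshold on a measured value was applied. All 10 had counts in all 57 samples. The study compared ASC between the sexes, between white adipose tissue of the perigonadal (pgWAT) and the inguinal (iWAT) depot, and between cells with and without the surface protein DPP4. Samples came from 8 male and 8 female C57BL6/J mice, 18 weeks old per the methods of the study, with no transgene named in the labels, and all were fasted for some hours before they were killed, per the same methods. Tissue pieces were digested with collagenase and dispase for 30 min. Cells without CD45 (leukocytes) and CD31 (endothelium) and with CD34 were then sorted into DPP4- cells, named ASC1 in the study, and DPP4+ cells, named ASC2. The 8 groups of depot, gate and sex held 7 mice each, except the male iWAT DPP4- group with 8. Both gates of a depot were split from the same CD34+ population of a mouse, whereas the depots of a mouse were separate tissues.

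Immediate early genes are transcribed within minutes of a stimulus from factors that already sit in the cell, with no need for newly made protein. Fos and Jun proteins pair to form AP-1, a transcription factor that answers growth factors, strain and stress, and MAP kinases carry many of these signals to it. Hsp70 chaperones answer unfolded protein instead, through the heat shock factor. Enzymatic digestion of a tissue is itself known to induce these genes, so in dissociated fat tissue their RNA can hold the state in the animal as well as the handling.

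The samples joined 143 libraries and held between 545885 and 4029915 gene counts, with medians per group from 1150699 in female to 1993693 in male iWAT DPP4- samples and from 2036794 to 3161947 in the other groups. Levels are CPM, that is, counts scaled to the total of all gene counts of a sample, of which an rRNA-like locus on chromosome 17 took 25.1% to 47.0% in a sample. The gates separated at their marker genes. The 3 ASC2 markers (Dpp4, Cd55 and Arl4d) summed to 669 CPM or more in every DPP4+ sample and to at most 534 CPM in DPP4- samples. Single samples held markers of other cells. The 6 mural cell markers reached 973 CPM (female pgWAT DPP4-) and the 6 endothelial markers 770 CPM (male iWAT DPP4+). The 9 leukocyte markers reached 394 CPM (female iWAT DPP4-) and the 3 mesothelial markers 166 CPM (male pgWAT DPP4+). Group medians of these sums were at most 180, 78.7, 41.2 and 67.1 CPM. The 7 markers of mammary luminal epithelium, all of them found, summed to between 242 and 18636 CPM in female iWAT DPP4- samples and to at most 393 CPM in any other sample. Epcam, a defining marker of that epithelium, was at 0 in 27 of the 57 samples. The highest sum belonged to mouse 22, whose iWAT DPP4- sample also held the fewest counts and only 3378 CPM of the 4 fibroblast markers, against 15572 CPM or more in the DPP4- samples of the other groups. Most results that this sample moves by much are also given without it. In the tests of differences, this leaves out all samples of mouse 22, including those of pgWAT where the test holds them. The part of epithelial RNA in these results was not tested.

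The stretch before the transcription start was available for 8 of the 10 genes in RefSeq sequences (GRCm38.p6). A set of 4 response elements was searched on both strands in up to 250 bases before the start. These were the CArG box bound by serum response factor, the cAMP response element TGACGTCA, the AP-1 element TGANTCA and the heat shock core GAANNTTC. The matches did not overlap each other. Dusp1 held TGACGTCA from position -143 counted from the start, a pattern found in 1.55% of 32851 promoters. Jun held GAANNTTC from -128 and Hspa1a from -104, as did 6.69% of all promoters. The CArG box (1.47% of all promoters) and TGANTCA (6.75%) matched none of the 8, which says only that these letters are not in these windows. Of the genes called between gates or depots, Dusp1, Jun, Hspa1a and Fosb have their sequences shown, and Fos, Ier2 and Nr4a1 do not. The 4 shown lie on the minus strand and are written 5′ to 3′ towards the start, without bases that GENCODE counts as exon. For Dusp1 the bases left out lie next to the start, which leaves 203 bases. Its position -143 is therefore counted from a start that lies past the printed end. Capitals mark the match, and the Fosb sequence has none.
Dusp1, chr17:26508520-26508722: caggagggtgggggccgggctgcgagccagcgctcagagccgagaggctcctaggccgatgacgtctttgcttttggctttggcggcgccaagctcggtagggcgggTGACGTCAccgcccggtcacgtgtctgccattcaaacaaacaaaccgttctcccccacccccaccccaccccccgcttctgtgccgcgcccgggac
Jun, chr4:95052223-95052472: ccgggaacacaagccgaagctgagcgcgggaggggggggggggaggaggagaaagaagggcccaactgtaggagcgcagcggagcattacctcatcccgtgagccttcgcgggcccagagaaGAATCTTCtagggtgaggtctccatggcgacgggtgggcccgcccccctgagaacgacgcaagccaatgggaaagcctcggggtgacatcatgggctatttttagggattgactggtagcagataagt
Hspa1a, chr17:34972157-34972406: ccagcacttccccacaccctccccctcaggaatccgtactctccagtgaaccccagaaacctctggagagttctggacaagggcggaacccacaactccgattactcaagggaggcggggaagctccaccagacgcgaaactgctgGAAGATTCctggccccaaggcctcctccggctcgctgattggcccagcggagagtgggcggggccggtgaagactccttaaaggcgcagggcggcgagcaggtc
Fosb, chr7:19310052-19310295: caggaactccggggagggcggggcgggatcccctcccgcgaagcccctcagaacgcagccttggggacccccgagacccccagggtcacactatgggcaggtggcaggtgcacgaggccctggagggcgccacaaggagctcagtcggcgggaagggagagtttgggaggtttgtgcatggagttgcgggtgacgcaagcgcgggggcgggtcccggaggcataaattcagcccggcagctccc

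Together the 10 genes took a mean of 1.15% of all counts in a sample, from 0.653% to 1.96%. The lowest share was that of male mouse 1 and the highest that of female mouse 22, both in iWAT DPP4- cells. Divided by exon length, the median level over all samples was highest for Fos (947 CPM per kb), followed by the zinc finger factor Egr1 (628 CPM per kb) and the AP-1 subunit Junb (608 CPM per kb). Dusp1, a phosphatase that switches MAP kinases off, had 354 CPM per kb and Ier2, a small nuclear protein, 331 CPM per kb. The orphan nuclear receptor Nr4a1 (255 CPM per kb), Jun (246 CPM per kb) and the stress-induced factor Atf3 (174 CPM per kb) came next. Fosb (88.4 CPM per kb) and Hspa1a (63.1 CPM per kb) were lowest. Single samples ranged widely enough that neighbours in this order overlapped. For Fos they lay between 563 and 2020.4 CPM per kb, and for Atf3 between 82.5 and 1009 CPM per kb.

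In GENCODE M21 (GRCm38) the genes are Fos on chromosome 12 (85473890 to 85477273), Fosb on chromosome 7 (19302696 to 19310051), Jun on chromosome 4 (95049034 to 95052222), Junb on chromosome 8 (84974484 to 84978718) and Egr1 on chromosome 18 (34859823 to 34864984). Atf3 is on chromosome 1 (191170296 to 191218039), Ier2 on chromosome 8 (84661331 to 84662852), Dusp1 on chromosome 17 (26505590 to 26562128), Hspa1a on chromosome 17 (34969190 to 34972156) and Nr4a1 on chromosome 15 (101254269 to 101274795). All are protein coding. Of the 10, 4 overlap a gene on the other strand that had counts of its own, namely Jun (Junos, 121 counts in all samples together), Junb (Prdx2, 13387), Dusp1 (Ergic1, 14275) and Hspa1a (Gm20481, 3041). The sources used here do not say whether the counting used strand, and reads in the overlaps are therefore uncertain. Hspa1a also shares nearly its whole coding sequence with Hspa1b, and the split of reads between them is uncertain.

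**Figure D1:**
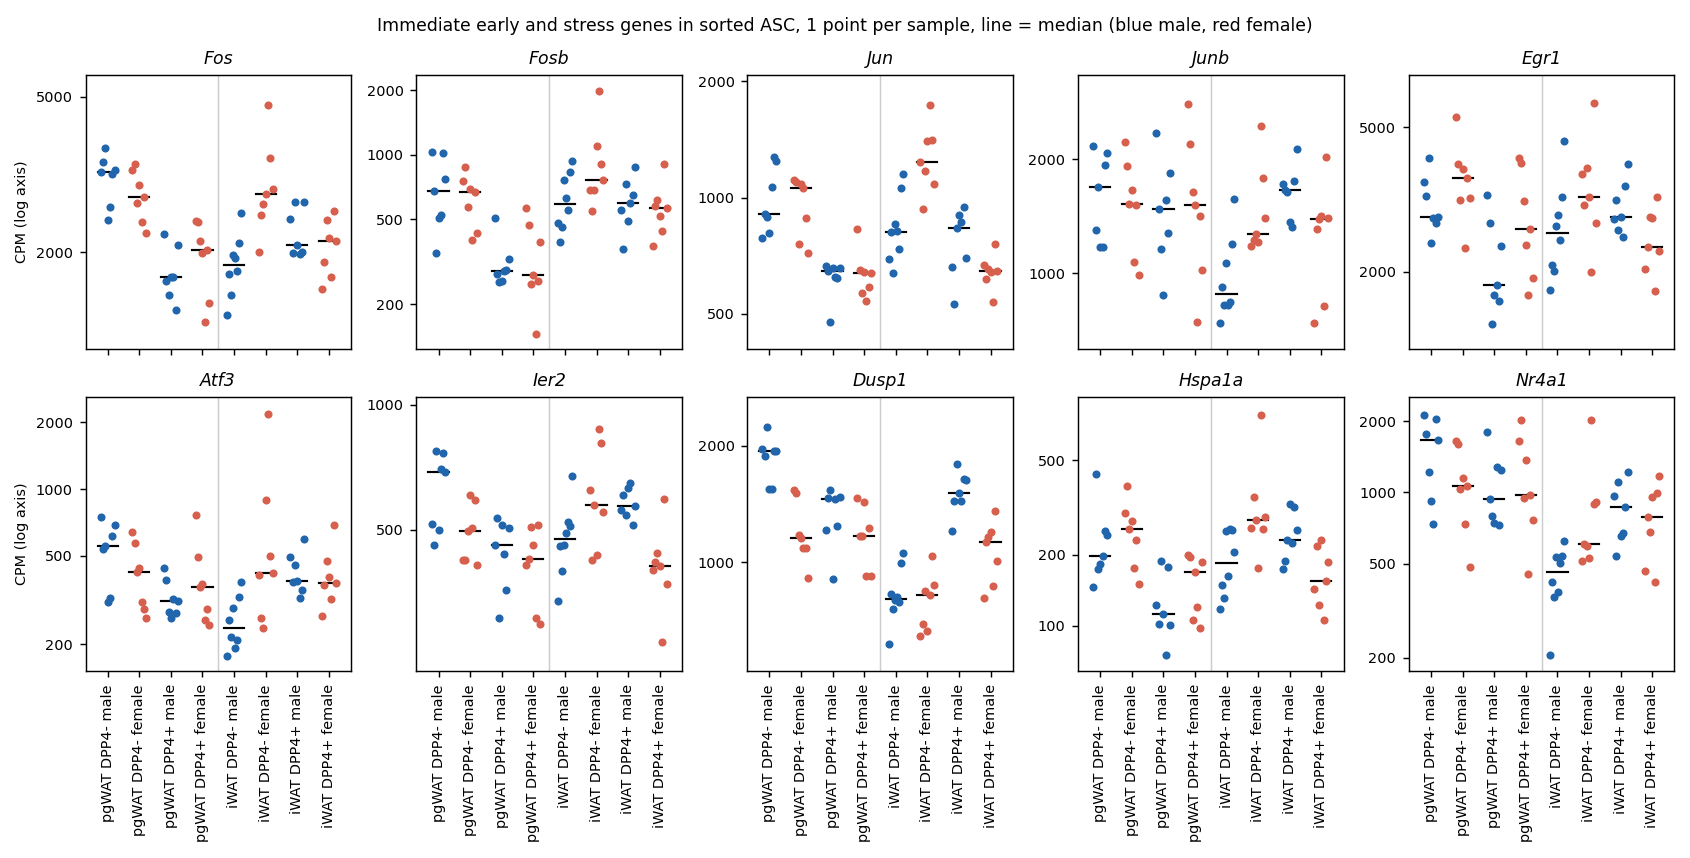
Level of each of the 10 genes in CPM on a log axis, with 1 point per sample, blue for male and red for female mice, and a line at the group median. In pgWAT the DPP4+ medians of Fos, Fosb and Jun lie below the DPP4- medians in both sexes, whereas in iWAT the DPP4+ medians of Dusp1 lie above them, and the points of several of these groups overlap.

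The first question was whether the genes differ between the gates of pgWAT. The AP-1 genes Fos, Fosb and Jun, together with Ier2 and Hspa1a, were lower in DPP4+ than in DPP4- cells, and no gene of the 10 was called higher. In male pgWAT, Fos ranged from 2422 to 3689 CPM in DPP4- cells with a median of 3213 CPM, and from 1424 to 2228 CPM in DPP4+ cells with a median of 1722 CPM. These male gates did not overlap. In females, Fos lay between 2241 and 3364 CPM (median 2773) in DPP4- and between 1324 and 2409 CPM (median 2019) in DPP4+ cells, so the highest DPP4+ samples reached into the DPP4- range. The log2 fold change of Fos between gates was -0.63 ± 0.12 (SE, edgeR quasi-likelihood test, adjusted p 0.000185).

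Fosb showed the largest difference. Its male samples held 347 to 1031 CPM (median 680.3) in DPP4- and 255 to 506 CPM (median 286) in DPP4+ cells, and its female samples 399 to 879 CPM (median 669.8) and 145 to 562 CPM (median 274). The ranges of both sexes overlapped, with mouse 1 as the highest male DPP4+ sample and mouse 17 as the highest female one. Fosb was lower by a log2 fold change of -0.99 ± 0.19 (adjusted p 0.000169). Jun, the main partner of Fos, had male values of 786 to 1274 CPM (median 907) against 476 to 665 CPM (median 647), with no overlap, and female values of 719 to 1111 CPM (median 1059.6) against 541 to 828 CPM (median 636). Its log2 fold change was -0.60 ± 0.10 (adjusted p 2.44e-05). Hspa1a fell from medians of 197 CPM in males and 256 CPM in females to 112 and 168 CPM (-0.80 ± 0.18, adjusted p 0.00167). Ier2 differed least among those called (-0.31 ± 0.11, adjusted p 0.0457), and its call was lost on leaving out any of 10 mice, with adjusted p up to 0.105 (without mouse 7).

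In all, 5 of the 10 genes were called in pgWAT, all lower in DPP4+ cells, against 14.7% of the 11213 genes tested in either direction. The median log2 fold change of the 10 was -0.39, beside 0.0023 over all genes tested. The other 5 did not pass, with -0.41 ± 0.16 for Egr1 (adjusted p 0.0837), -0.37 ± 0.20 for Atf3, -0.24 ± 0.12 for Dusp1, -0.17 ± 0.22 for Nr4a1 and 0.00 ± 0.18 for Junb. With the mouse as a block, which compares gates within a mouse, Egr1 passed as well (-0.41, adjusted p 0.00248). The sexes fitted alone gave different counts. In males 8 of the 10 passed, against 10.6% of all genes tested, all lower in DPP4+ cells and led by Fosb (-1.18), Hspa1a (-0.96) and Fos (-0.86). In females none did, against 8.8% of all genes, with Fosb at -0.80 (adjusted p 0.0721), Jun at -0.49 (adjusted p 0.056) and Fos at -0.41 (adjusted p 0.208). In a bulk sample, fewer cells that transcribe a gene and less RNA per cell cannot be told apart.

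Within single mice, Fos, Fosb and Jun were lower in the DPP4+ cells of 13 of 13 mice with both pgWAT gates, Hspa1a in 12, and Egr1 and Atf3 in 11. The difference of Fosb within a mouse had a median of -1.13 on the TMM-scaled log2 scale and ranged from -1.63 to -0.12. Junb was lower in only 6 of the 13 mice, although it encodes a subunit of the same AP-1 family.

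**Figure D2:**
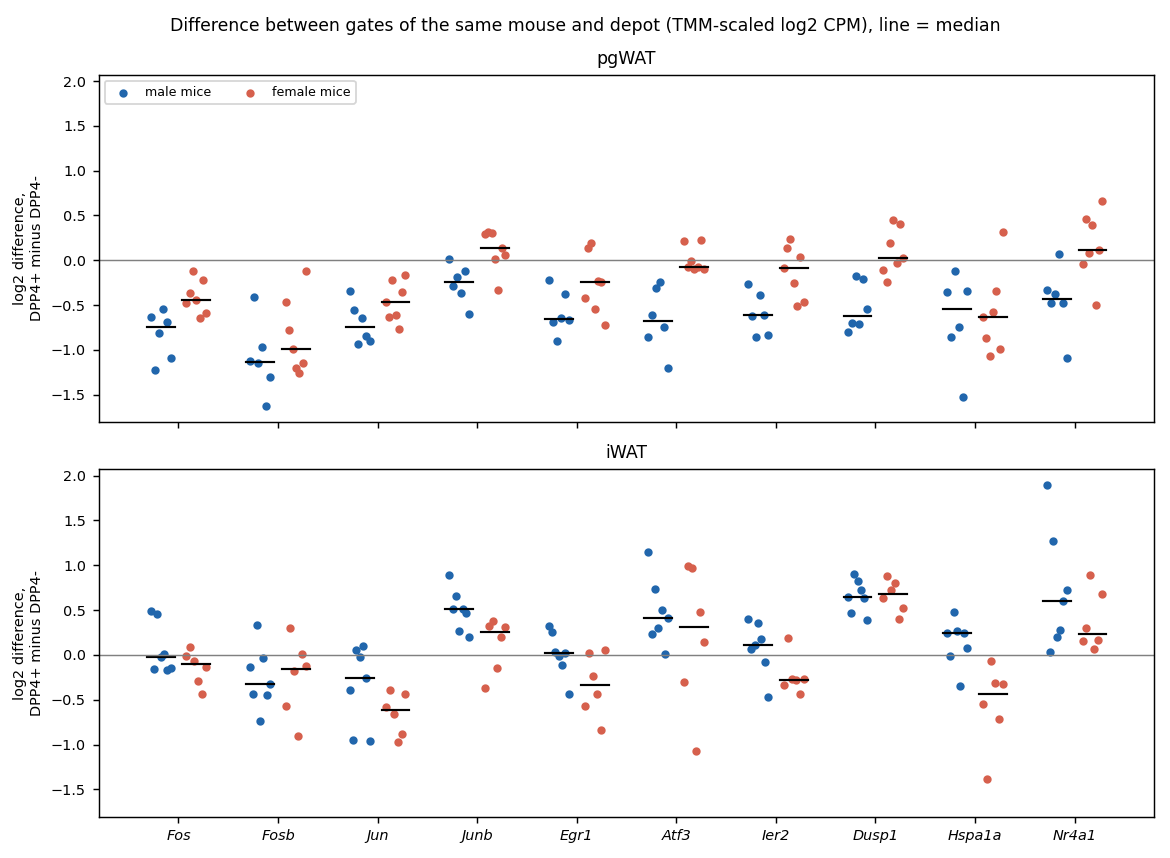
Difference of each gene between the gates of the same mouse and depot (DPP4+ minus DPP4-, TMM-scaled log2 CPM), with 1 point per mouse, blue for male and red for female mice, a line at the median and a grey line at 0. In pgWAT the points of Fos, Fosb and Jun lie below 0 in all 13 mice, and in iWAT those of Dusp1 and Nr4a1 lie above 0 in all 13 mice.

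In iWAT, Dusp1, the MAP kinase phosphatase, was higher in DPP4+ cells, and Jun was lower as it was in pgWAT. These 2 of the 10 genes were called, against 15.3% of the 11072 genes tested. Dusp1 in male iWAT ranged from 612 to 1053 CPM (median 804) in DPP4- and from 1202 to 1795 CPM (median 1515) in DPP4+ cells, with no overlap. In female iWAT it ranged from 642 to 1037 CPM (median 823) and from 807 to 1356 CPM (median 1126), with some overlap. The log2 fold change of Dusp1 was 0.66 ± 0.11 (SE, adjusted p 2.14e-05), and it was higher in the DPP4+ cells of 13 of 13 mice. Jun separated the female gates, with 935 to 1733 CPM (median 1235) in DPP4- against 538 to 758 CPM (median 646) in DPP4+ cells. The male gates of Jun overlapped, with medians of 816 and 835 CPM and ranges of 637 to 1151 and 530.1 to 944 CPM. Its log2 fold change over both sexes was -0.53 ± 0.12 (adjusted p 0.00205). In males alone it was -0.32 (adjusted p 0.23) and in females alone -0.78, which passed. The female fit holds mouse 22, the highest Jun sample of its DPP4- group, and is not given without that mouse. Over both sexes Jun stayed called without mouse 22. In males alone Dusp1 (0.67), Nr4a1 (0.73), Junb (0.53) and Atf3 (0.51) were higher in DPP4+ cells, against 14.2% of all genes called. In females alone Dusp1 (0.62) and Jun passed, against 9.94%.

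Nr4a1 was higher in the iWAT DPP4+ cells of 13 of 13 mice as well, though by amounts from 0.036 to 1.90 on the log2 scale. Its fold change of 0.43 ± 0.18 did not pass (adjusted p 0.113), but it did with the mouse as a block (0.53, adjusted p 0.00998) and without mouse 22 (0.60, adjusted p 0.00498). The iWAT DPP4- sample of mouse 22 held 2015 CPM of Nr4a1, against 511 to 907 CPM in the other female samples of its group, and that mouse had no DPP4+ partner. Junb did not pass either (0.28 ± 0.14, adjusted p 0.206) and did so without mouse 22 (0.37, adjusted p 0.0473). Fos in iWAT gave -0.12 ± 0.11 and Fosb -0.36 ± 0.15 (adjusted p 0.12), the genes that differed clearly in pgWAT. The median log2 fold change of the 10 was -0.12, and -0.034 over all genes tested.

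Whether the gate difference itself differed between depots was tested as an interaction over all samples. Dusp1 was called (0.91 ± 0.16, adjusted p 0.000114), with a gate difference of -0.24 in pgWAT and 0.66 in iWAT, and 2.2% of the 12270 genes tested were called. Fos came closest of the others (0.53 ± 0.16, adjusted p 0.0604) and passed without mouse 22 (0.63, adjusted p 0.0113). Jun, lower in the DPP4+ cells of both depots, gave 0.08 ± 0.15. All 10 values were positive, with a median of 0.48 against -0.017 over all genes tested. This split by sex. In males alone the 10 values were again all positive with a median of 0.91, and Atf3 (1.26), Nr4a1 (1.24), Dusp1 (1.21) and Fos (0.91) passed, against 1.86% of all genes. In females alone 3 of the 10 were positive, the median was -0.081 and none passed (Dusp1 0.60, adjusted p 0.336), against 1.33% of all genes. The female fit holds the iWAT DPP4- sample of mouse 22 and is not given without it. Over both sexes the median of the 10 without mouse 22 was 0.65. The difference between the sexes in this interaction was not tested.

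The gate difference was therefore compared between the sexes within each depot, a comparison added after seeing the data. No gene of the 10 was called in either depot by edgeR's quasi-likelihood test or by DESeq2, against 1.16% of all genes in pgWAT and 2.85% in iWAT, and 2 of the 10 had an unadjusted p under 0.05 in each depot. In pgWAT all 10 values were negative, meaning a lower DPP4+ level relative to DPP4- in males than in females, with a median of -0.40 against 0.038 over all genes. The largest were Atf3 (-0.79 ± 0.36, adjusted p 0.461), Nr4a1 (-0.71 ± 0.43) and Dusp1 (-0.62 ± 0.22, adjusted p 0.237). With the mouse as a block, Atf3 (-0.66, adjusted p 0.0412) and Dusp1 (-0.61, adjusted p 0.0489) passed, against 1.8% of all genes. In iWAT all 10 values were positive, with a median of 0.41 against 0.018 over all genes, led by Atf3 (0.94 ± 0.41, adjusted p 0.251) and Hspa1a (0.92 ± 0.34, adjusted p 0.147). Without mouse 22 these were 0.47 and 0.71, and all 10 stayed positive. Dusp1 gave 0.01 ± 0.21 there. The sizes depend on the scaling. Scaled by library totals alone, the median of all genes moved to 0.20 in pgWAT and 0.48 in iWAT, the split of all called genes in pgWAT moved from 56 higher and 74 lower to 115 and 50, and in iWAT 704 of 771 called genes were higher. The 10 genes stayed all negative in pgWAT (median -0.24) and all positive in iWAT (median 0.87), where Fos, Jun, Junb, Atf3, Ier2 and Hspa1a then passed, against 6.96% of all genes.

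Within single mice, the median difference between gates was lower in males than in females for 9 of the 10 genes in pgWAT, with Hspa1a as the exception (-0.55 in males, -0.63 in females). In iWAT it was higher in males for 8 of the 10, and lower for Fosb (-0.32 and -0.16) and Dusp1 (0.65 and 0.68). Dusp1 was lower in the DPP4+ cells of 6 of 6 male mice in pgWAT (median -0.62 on the log2 scale), but in females it was higher in 4 and lower in 3 (median 0.029). Atf3 in pgWAT was lower in 6 of 6 males (median -0.68) and in 5 of 7 females (median -0.075). Hspa1a in iWAT was lower in the DPP4+ cells of 6 of 6 females (median -0.44) and higher in 5 of 7 males (median 0.24).

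Depots were compared within each sex. In male mice, Fosb, Jun and Hspa1a were higher in iWAT than in pgWAT and Nr4a1 was lower, so that 4 of the 10 genes were called against 13.6% of the 11208 genes tested. The log2 fold change was 0.65 ± 0.17 (adjusted p 0.00657) for Fosb, 0.32 ± 0.11 (adjusted p 0.0444) for Jun, 0.59 ± 0.19 (adjusted p 0.0385) for Hspa1a and -0.80 ± 0.20 (adjusted p 0.0041) for Nr4a1. Egr1 gave 0.40 ± 0.14 (adjusted p 0.0558). Jun lost its call with the mouse as a block (0.30, adjusted p 0.0703). Leaving out any of mice 3, 4, 6, 7 and 8 ended the calls of both Jun (0.25 to 0.34) and Hspa1a (0.49 to 0.58), and leaving out mouse 5 that of Hspa1a (0.59, adjusted p 0.0618). The male split of all called genes was 876 higher and 648 lower. Scaled by library totals alone it was 426 and 1755, the median of all genes moved to -0.26, and Fosb (0.38), Jun (0.03) and Hspa1a (0.31) were not called whereas Dusp1 was (-0.52, adjusted p 0.0107).

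The male depots did not differ in the same way in both gates. In DPP4- cells alone, Nr4a1 (-1.42), Dusp1 (-0.84, adjusted p 0.000136) and Atf3 (-0.74, adjusted p 0.0193) were lower in iWAT and none was higher, against 7.54% of all genes called. Nr4a1 in these cells ranged from 737 to 2119.7 CPM (median 1674) in pgWAT and from 206 to 623 CPM (median 461) in iWAT, with no overlap, and Dusp1 from 1549.5 to 2238 CPM (median 1935) and from 612 to 1053 CPM (median 804), likewise apart. In DPP4+ cells alone, 7 of the 10 genes were higher in iWAT, against 10.4% of all genes called, namely Hspa1a (1.15), Fosb (1.11), Egr1 (0.67), Ier2 (0.55), Atf3 (0.53), Fos (0.50) and Jun (0.50). Fosb in male DPP4+ cells had 255 to 506 CPM (median 286) in pgWAT and 363 to 878 CPM (median 592) in iWAT, overlapping through mouse 1 in pgWAT. Atf3 thus differed between depots in opposite directions in the gates, and over both gates its value was -0.11 ± 0.17 (adjusted p 0.78). Within single male mice, Fos, Dusp1 and Nr4a1 of DPP4- cells were lower in iWAT in 7 of 7 mice, and Fos, Fosb, Atf3, Ier2 and Hspa1a of DPP4+ cells were higher in 6 of 6.

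In female mice, Fosb was the single gene of the 10 called between depots, higher in iWAT by a log2 fold change of 0.73 ± 0.19 (adjusted p 0.0137), against 6.6% of 10961 genes tested. Its DPP4- samples lay between 399 and 879 CPM (median 669.8) in pgWAT and between 547 and 1973 CPM (median 764) in iWAT. Its DPP4+ samples lay between 145 and 562 CPM (median 274) and between 373 and 908 CPM (median 564). The call was lost without mouse 21 (0.62, adjusted p 0.0525), mouse 22 (0.59, adjusted p 0.0529) or mouse 23 (0.62, adjusted p 0.0838). The next largest values were Nr4a1 (-0.44 ± 0.22, adjusted p 0.292) and Atf3 (0.40 ± 0.25, adjusted p 0.425), the latter with 2173 CPM in the iWAT DPP4- sample of mouse 22 against a group median of 420.4 CPM. Without mouse 22 Nr4a1 gave -0.61 (adjusted p 0.093) and Atf3 0.07. Scaled by library totals alone, Dusp1 was called lower in iWAT (-0.37, adjusted p 0.0491), and the split of all called genes moved from 377 higher and 346 lower to 308 and 542.

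Between the sexes, Dusp1 alone of the 10 genes was called, and higher in males in both depots. In pgWAT 10.7% of 11213 genes were called and in iWAT 4.9% of 11072. In pgWAT DPP4- cells Dusp1 ranged from 1549.5 to 2238 CPM in males and from 909.8 to 1538 CPM in females, with no overlap. In pgWAT DPP4+ cells the ranges of 907 to 1537 CPM in males and 922 to 1464 CPM in females overlapped. In iWAT the ranges were 1202 to 1795 CPM in males and 807 to 1356 CPM in females in DPP4+ cells, and 612 to 1053 and 642 to 1037 CPM in DPP4- cells. The TMM-scaled sex difference of Dusp1 was not called to differ between these gates (0.01 ± 0.21, adjusted p 0.99). The log2 fold change over both gates was 0.41 ± 0.12 (SE, adjusted p 0.0253) in pgWAT and 0.48 ± 0.11 (adjusted p 0.00504) in iWAT. By gate, Dusp1 passed in pgWAT in DPP4- cells (0.70, adjusted p 0.00715) but not in DPP4+ cells (0.10, adjusted p 0.834). In iWAT it passed in DPP4+ cells (0.49, adjusted p 0.013) but not in DPP4- cells (0.42, adjusted p 0.241). These sex calls of Dusp1 were not stable. With both gates of a mouse summed to 1 sample neither passed (0.44, adjusted p 0.0807, and 0.44, adjusted p 0.243), leaving out mouse 3, 21, 22 or 23 ended the call in pgWAT (adjusted p 0.0517 to 0.0767), and scaling by library totals alone ended that in iWAT (0.27, adjusted p 0.168).

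The other 9 genes did not pass between the sexes. In pgWAT their values ran from -0.31 ± 0.16 for Egr1 (adjusted p 0.268) to 0.24 ± 0.11 for Ier2 (adjusted p 0.173), and in iWAT from -0.48 ± 0.22 for Atf3 (adjusted p 0.251) to 0.26 ± 0.13 for Ier2 (adjusted p 0.297). Without mouse 22 Atf3 gave -0.20 in iWAT (adjusted p 0.6). In single gates Ier2 was higher in males in pgWAT DPP4- cells (0.44, adjusted p 0.0357) and in iWAT DPP4+ cells (0.47, adjusted p 0.034). In these single gates 9.33% (pgWAT DPP4-), 4.26% (pgWAT DPP4+), 3.67% (iWAT DPP4-) and 8.27% (iWAT DPP4+) of all genes were called. The sex difference was not called to differ between depots for any of the 10 genes by edgeR, with 0 at an unadjusted p under 0.05 and 0 by DESeq2, and 2.49% of 12270 genes were called. Levels in CPM and these fold changes are on different scales in iWAT. The TMM factors of DPP4- samples there were 0.766 to 0.902 in males and 0.982 to 1.32 in females, and scaling by library totals alone moved the median of all genes between sexes to -0.19 and the split from 298 higher and 244 lower in males to 181 and 442. For the test between depots the median moved to -0.16 and the split from 122 and 183 to 65 and 217.

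Mice of the same group differed, and for most of the 10 genes the deviations were shared between the gates of a mouse. Each gene's deviation from its group mean was correlated between the DPP4- and DPP4+ samples of the same mouse and depot. In pgWAT the 10 correlations had a median r of 0.73 over 13 mice and ranged from 0.38 (Hspa1a) to 0.95 (Junb), whereas the median over all 12270 genes tested was 0.098. Of the 10 genes, 9 exceeded the 90th percentile of all genes, 0.518. Without the 2 mice farthest from the median of a gene in DPP4- cells, r fell below this value for Ier2 (0.49), Dusp1 (0.48) and Jun (0.39). For Fosb r was 0.74 and for Egr1 0.79 without such mice. DPP4+ samples did not enter this choice of mice, here or in iWAT. Junb gave r = 0.95 (permutation p 5e-05) and rho = 0.86 (permutation p 0.00062), and r = 0.93 without the 2 mice farthest from the median. Atf3 gave r = 0.89 (permutation p 6e-05) and rho = 0.83 (permutation p 0.00028), and Nr4a1 r = 0.83 (permutation p 0.0012) and rho = 0.82 (permutation p 0.0021), with 0.88 and 0.83 without the 2 farthest mice. Fos gave r = 0.73 (permutation p 0.011) and rho = 0.68 (permutation p 0.024), and its r was 0.57 without the 2 farthest mice. These p-values are two-sided, from 100000 permutations of mice within each sex, and are not adjusted for the 40 relations computed.

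In iWAT, too, some of the relations between gates rested on a few mice. The median r of the 10 genes was 0.57, from 0.071 (Atf3) to 0.79 (Egr1), beside 0.058 over all genes, and 6 of the 10 exceeded the 90th percentile of all genes, 0.467. Egr1 gave r = 0.79 (permutation p 0.0022), rho = 0.79 (permutation p 0.0032) and r = 0.68 without the 2 farthest mice. Dusp1 gave r = 0.78 (permutation p 0.0024), rho = 0.73 (permutation p 0.0093) and r = 0.59 without them. Junb gave r = 0.69 (permutation p 0.0027) and rho = 0.57 (permutation p 0.039), and Fos r = 0.45 (permutation p 0.14) and rho = 0.26 (permutation p 0.41). Without mice 8 and 23, the farthest for both genes, r was 0.40 for Junb and -0.08 for Fos, so the relation of Fos rested on these mice.

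Between the depots of the same mouse the correlations lay around 0. In DPP4- cells the median r of the 10 genes was -0.14 over 13 mice (0.037 over all genes), from -0.46 (Fos, permutation p 0.13, rho -0.48, permutation p 0.10) to 0.31 (Jun, permutation p 0.33, rho 0.27, permutation p 0.39), or -0.39 and 0.13 without the 2 farthest mice, and 2 of the 10 were positive. Between depots the 2 farthest mice were chosen by their pgWAT samples alone. Without mouse 22 the median was -0.17. In DPP4+ cells the median was -0.050 over 12 mice (0.057 over all genes), and 4 of the 10 were positive. Hspa1a was the exception in DPP4+ cells, with r = 0.64 (permutation p 0.038), rho = 0.61 (permutation p 0.051) and r = 0.66 without the 2 farthest mice, yet r = 0.17 (permutation p 0.58) and rho = 0.38 (permutation p 0.22) in DPP4- cells. The difference between these correlations and those between gates was not tested.

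Averaged over the 10 genes, the deviations show which mice stood high or low. In female pgWAT, mouse 17 lay above its group by 0.59 (DPP4-) and 0.60 (DPP4+) on the log2 scale and mouse 18 by 0.48 and 0.52, whereas mouse 21 lay at -0.43 and -0.67 and mouse 23 at -0.44 and -0.32. In male pgWAT, mouse 1 lay at 0.30 and 0.44 and mouse 4 at -0.30 and -0.25. In iWAT the order was another. Mouse 23, low in pgWAT, was the highest female with both iWAT gates (0.49 and 0.37), and mouse 1, high in pgWAT, was the lowest male in iWAT DPP4- cells (-0.52, and -0.18 in DPP4+ cells). Mice 7 (0.37 and 0.27) and 8 (0.47 and 0.21) were the highest males in iWAT. The r of these averages was 0.94 between the gates of pgWAT, 0.68 between those of iWAT, -0.25 between depots in DPP4- and -0.04 between depots in DPP4+ cells (rho 0.92, 0.47, -0.37 and -0.13), given here as a description. The labels name no day, batch or order of collection, so a step shared by the gates of a depot and a state of the depot in the animal cannot be told apart.

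**Figure D3:**
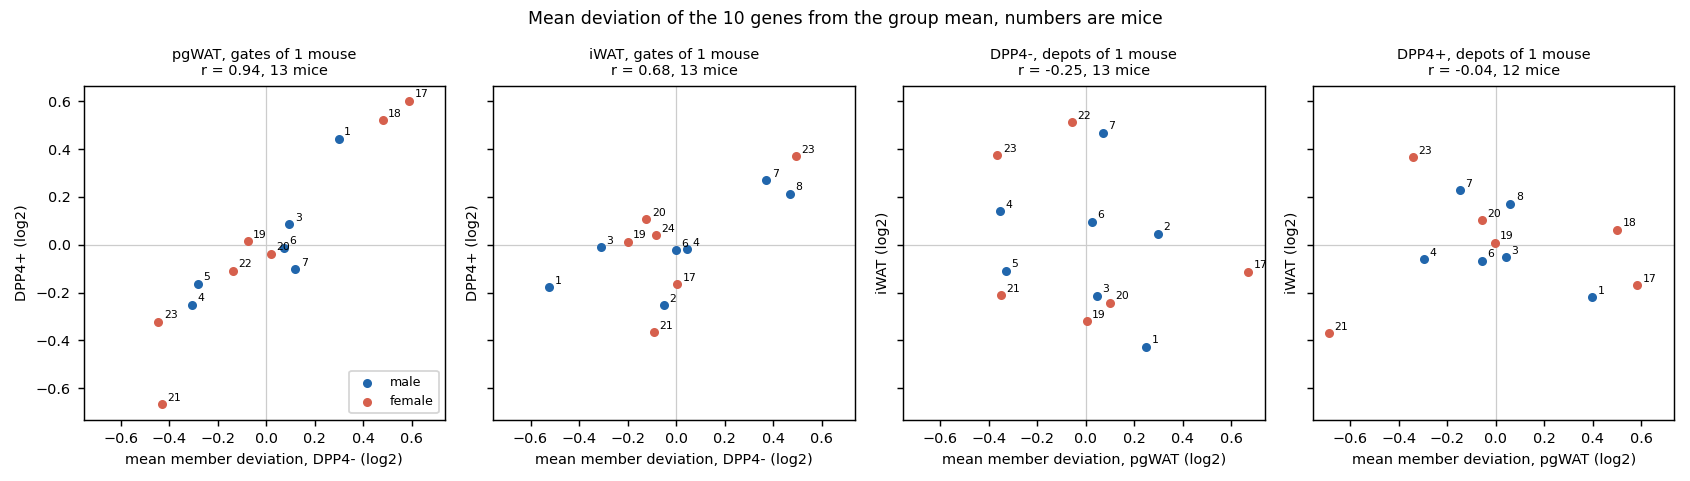
Mean deviation of the 10 genes from the group mean on the log2 scale, with 1 point per mouse (blue male, red female, mouse number beside it), for both gates of the same mouse and depot in the left panels and both depots of the same mouse and gate in the right panels. Points follow a line between the gates of pgWAT (r = 0.94) and less so of iWAT (r = 0.68), and scatter between depots (r = -0.25 and -0.04).

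The 10 genes also moved together across samples. With group means removed, all 45 pairs correlated positively over the 57 samples, with a median r of 0.51 and a range from 0.10 to 0.86, and 23 pairs exceeded 0.5. All pairs of tested genes had a median r of 0.01 and a 90th percentile of 0.251. The closest pairs were Junb with Nr4a1 (0.86), Fos with Junb (0.84) and Fos with Nr4a1 (0.84), and the loosest was Ier2 with Hspa1a (0.10). Averaged over its 9 partners, Junb had a mean r of 0.66, Fos 0.66 and Nr4a1 0.63, whereas Ier2 had 0.40 and Hspa1a 0.35. Without the iWAT DPP4- sample of mouse 22 all 45 pairs were again positive, with a median r of 0.55 from 0.04 to 0.86, and Fos with Egr1 (0.84) was the second closest. The samples include several of each mouse, so these are not independent points. The mean deviation of the 10 genes correlated with the log2 total count at r = 0.056 (permutation p 0.70) and rho = 0.14 (permutation p 0.32). With the mitochondrial share it gave r = -0.0015 (permutation p 0.99) and rho = 0.031 (permutation p 0.82), and with the share of the rRNA-like locus r = 0.23 (permutation p 0.095) and rho = 0.19 (permutation p 0.17). Without the 2 farthest samples these r were 0.19, 0.11 and 0.23. These permutations moved samples within their group and did not keep the samples of a mouse together. Their p-values therefore take samples as independent, which those of a mouse are not.

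**Figure D4:**
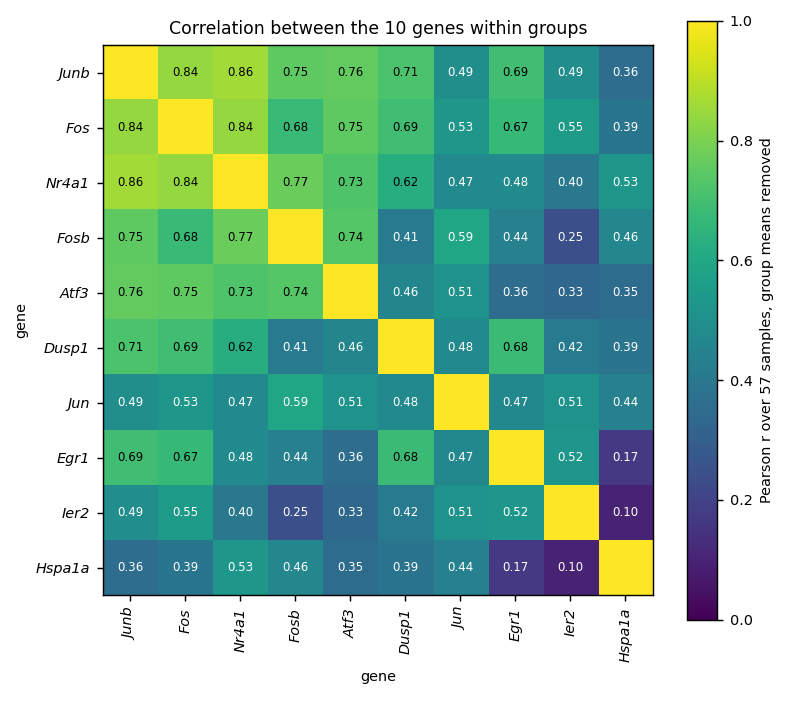
Pearson correlation of every pair of the 10 genes over 57 samples after removal of group means, on a colour scale from 0 to 1 with the value printed in each square. Junb, Fos and Nr4a1 form the brightest corner (0.84 to 0.86), and Hspa1a and Ier2 the darkest square (0.10).

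Of 7739 other genes that reached an average log2 CPM of 3, the 10 most like the average of the members included Zfp36 (r = 0.85), which encodes a protein that destabilises inflammatory mRNA, Nfkbiz (0.82) and Btg2 (0.82). Others were Csrnp1 (0.78), Nfkbia, the inhibitor of NF-kB (0.77), the Hsp40 chaperone Dnajb1 (0.77), Ier3 (0.77), Ifrd1 (0.74) and the metallothionein Mt1 (0.74). The median over the candidates was -0.040. Of the 10 most alike, 7 belonged to the lists of early response, feedback and heat shock genes described below, which held 90 of the candidates. Without the iWAT DPP4- sample of mouse 22, 5 of the 10 stayed among the most alike, and Zfp36 stayed at 0.89.

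The spread between mice was set against the spread between libraries made from the same RNA, which is technical. Over the 10 genes the median SD of log2 CPM was 0.26 between single libraries and 0.44 between mice of a group, a ratio of 1.44. For 884 genes with at least 100 counts per library the medians were 0.41 and 0.36, with a median ratio of 0.87. All 10 genes had a ratio above it, but only 6 of the 10 an SD between mice above 0.36, so the ratio also rests on their low SD between libraries. A sample is mostly a sum of libraries, so a ratio near 1 does not mean that mice were alike. Atf3 (0.24 between libraries, 0.55 between mice) and Nr4a1 (0.27 and 0.58) varied most between mice, and Jun (0.26 and 0.26) least. Without the iWAT DPP4- sample of mouse 22 the SD between mice was 0.48 for Atf3 and 0.56 for Nr4a1. Hspa1a, the gene with the fewest counts, had the largest SD between libraries (0.40).

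Other genes of the early response were followed in 6 lists. Their counts stand against the share of all genes called, which was 14.7% and 15.3% between the gates of pgWAT and iWAT, 10.7% and 4.9% between the sexes in these depots, 13.6% and 6.6% between depots in males and females, and 2.2% and 2.49% for the differences of gate and sex between depots. Among 33 early transcription factors and early response genes, 8 of the 29 tested were lower and 2 higher in the DPP4+ cells of pgWAT, together 34.5%, with a median log2 fold change of -0.32. The largest decreases were those of Arc (-1.48 ± 0.26), the BMP target Id1 (-1.42 ± 0.22) and the antiproliferative Btg1 (-1.23 ± 0.19). In iWAT 7 of 30 were higher and 7 lower, together 46.7%, with Arc lower again (-2.25 ± 0.36) and the Nr4a1 relative Nr4a3 (1.39 ± 0.29) and Klf2 (1.37 ± 0.25) higher. Between the sexes 4 of 29 (13.8%, near the share of all genes) were higher in males in pgWAT, led by Rhob (0.94 ± 0.16) and Cebpd (0.73 ± 0.15), and in iWAT 2 were higher and Egr2, the relative of Egr1, was lower (-1.38 ± 0.25). The sex difference of Rhob was also called to differ between depots (-0.88 ± 0.24). For the gate difference between depots 2 of 30 were called, Ccn1 (1.14 ± 0.21) and Id3 (1.02 ± 0.23). In males 5 of 30 were higher and 6 lower in iWAT than in pgWAT, with Ccn2 (-1.83 ± 0.32) first, and in females 2 were higher, Ier3 (0.90 ± 0.21) and Klf4 (0.47 ± 0.14).

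Among 20 feedback regulators, which end MAP kinase or NF-kB signals, the same 3 genes were lower in the DPP4+ cells of both depots. These were the ERK inhibitors Spry1 (-1.26 ± 0.24 in pgWAT and -2.03 ± 0.34 in iWAT), Spry4 (-1.10 ± 0.26 and -2.62 ± 0.61) and the ERK phosphatase Dusp6 (-0.90 ± 0.26 and -1.82 ± 0.36). Of the 18 tested, 3 others were higher in pgWAT and 5 in iWAT, so that 33.3% and 44.4% were called. Nfkbiz was called for the gate difference between depots (1.35 ± 0.33). Between sexes, 3 of 18 were higher in males and 1 lower in pgWAT and 1 was higher in iWAT, with Errfi1, an inhibitor of the EGF receptor, higher in males in both (1.09 ± 0.21 and 1.30 ± 0.22). The sex difference of Errfi1 was smaller in DPP4+ than in DPP4- cells, as called in both depots (-1.67 ± 0.28 in pgWAT, -1.61 ± 0.32 in iWAT). In that comparison, added after seeing the data, Errfi1 was the single call of this list. The sex difference of Dusp6 (-1.78 ± 0.46) and Zfp36l1 (0.70 ± 0.18) differed between depots. Nfkbia was higher in iWAT than in pgWAT in males (1.33 ± 0.17) and females (0.98 ± 0.20), where 5 of 18 were higher and 2 lower, and 2 of 17 higher and 2 lower.

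Among the 18 heat shock chaperones other than Hspa1a, 3 were higher in males and 0 lower in each depot, 16.7% of them, in pgWAT not far above the share of all genes. Hspb8 was higher in males in pgWAT (0.85 ± 0.09) and iWAT (1.30 ± 0.15) and Hspb1 likewise (1.32 ± 0.23 and 1.02 ± 0.29), both small heat shock proteins. In iWAT the sex difference of Hspb1 was called larger in DPP4+ than in DPP4- cells (1.93 ± 0.44). Between gates 2 were higher and Cryab was lower (-0.48 ± 0.15) in pgWAT, again 16.7%, and Hspb8 was the single call in iWAT (1.01 ± 0.15). Hspb8 was also the single call for the gate difference between depots (0.76 ± 0.17). In males 5 were higher and 1 lower in iWAT than in pgWAT, and in females 0 were called. Hspa1b, the near copy of Hspa1a, did not pass in any comparison.

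Among 8 early cytokines and inflammatory genes tested in iWAT, 4 were higher and 1 lower in DPP4+ cells. The prostaglandin synthase Ptgs2 was higher by 3.15 ± 0.30 there and by 1.44 ± 0.31 in pgWAT, and its gate difference differed between depots (1.71 ± 0.44), whereas the adhesion molecule Icam1 was lower in both (-1.63 ± 0.26 and -1.05 ± 0.26). In iWAT the gate difference of Icam1 was called to differ between the sexes (-1.68 ± 0.40, male minus female). In males Ccl7 (1.04 ± 0.31) and Ccl2 (0.83 ± 0.27) were higher in iWAT than in pgWAT. Between sexes Icam1 was lower in males in pgWAT (-1.39 ± 0.26), and Ptgs2 (0.97 ± 0.29) and Cxcl1 (0.68 ± 0.21) were higher in males in iWAT. Of 11 AP-1 relatives tested, 0 were called between the pgWAT gates and 3 between the iWAT gates, among them Fosl1 (1.94 ± 0.51) and Maff (1.28 ± 0.41), both higher in DPP4+ cells. Jund, the AP-1 subunit that is expressed without a stimulus, was higher in males in iWAT (0.67 ± 0.20). Of the 16 upstream kinases and factors, no more than 3 were called in any comparison.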

How the data were processed

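RNA of sorted ASC was sequenced as replicate Smart-seq2 libraries without molecular identifiers, made from RNA of about 300 of 5000 sorted cells. The authors deposited raw counts per gene and library, which were used as deposited. The submitters' processing notes name bcl2fastq, STAR, Salmon and the mm10 build, while the sources used here give no versions, counting settings or strand. A second deposited table of means over libraries was not used. Spike-in rows (0.00461% of counts) stayed out of library sizes and tests. Libraries of a mouse, depot and gate are technical replicates and were summed, which gave 57 samples of 143 libraries, and 10 libraries held under 250000 counts. Counting error is small at the smallest count of any of the 10 genes in a sample, 185, and amplified reads are not independent molecules.

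Comparisons used edgeR's quasi-likelihood test (edgeR 4.0.16, R 4.3.3) on the sums, scaled by TMM after filterByExpr, with Benjamini-Hochberg adjustment over all genes tested, called at an adjusted p under 0.05. Within a depot, sex was tested with gate as a covariate and gate with sex as a covariate. Depots were tested in each sex, adjusted for gate, and interactions with depot over all samples. Both gates of a mouse counted as samples in the tests of sex, as in the study. An SE is the log2 fold change over the root of its F statistic. Deviations from group means used log2 CPM (TMM, prior count 2), and permutations used numpy 2.4.6. Samples were paired by mouse number, because a number stands for an animal. Over all genes, deviations of its gates correlated at a median r of 0.098 in pgWAT and 0.058 in iWAT.

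The 10 genes and the lists were chosen with earlier results of these data known. All 10 genes are named in each comparison, and of each list at most 3 called genes, those of largest absolute change with an average log2 CPM of 3 or more, with a selection of these printed. Values of a few list genes are not reported here. Alternatives were DESeq2 1.42.0, library totals as the only scaling, no filter on low counts, the rRNA-like locus left out, libraries under 250000 counts left out, counts thinned to a common depth, gates summed per mouse, single gates or sexes, the mouse as a block, each mouse left out and, added after seeing the data, the iWAT DPP4- sample of mouse 22 left out.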

Additional observations from a re-analysis of the deposited data

Results flagged for a closer look

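Among the 80 combinations of a gene and a group, 4 held a sample that lay far from the other 6 of its group, and chance alone marks about 1 in 20 combinations. Each is given as the gap to the nearest sample divided by the whole range of the group, on the log2 CPM scale, where values above 0.568 were marked. In male pgWAT DPP4+ cells, Fosb of mouse 1 was the highest (8.95 log2 CPM, the others 7.84 to 8.23, ratio 0.65). In the same group Jun of mouse 4 was the lowest (8.74 log2 CPM, the others 9.21 to 9.35, ratio 0.772), and so was Dusp1 of mouse 5 (9.80 log2 CPM, the others 10.21 to 10.44, ratio 0.634). In male pgWAT DPP4- cells, Hspa1a of mouse 2 was the highest (8.94 log2 CPM, the others 7.27 to 7.76, ratio 0.703). Mouse 2 had no DPP4+ sample in pgWAT.

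The gate difference of Dusp1 differed between the depots, with a log2 difference of 0.91 between iWAT and pgWAT by edgeR's test of the interaction.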

How the results depend on the processing

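The 15 differences called for the 10 genes had 329 alternative fits, of which 274 were called, 55 were not and 0 had the other sign. Differences not called had 1861 alternative fits, of which 156 had the other sign and 53 were called. One of these fits had the other sign and was called, Atf3 between male depots in DPP4+ cells alone.

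Counts of all called genes moved by over 1.5 times as follows. Without a filter on low counts they were 1836 for sex in pgWAT, 1382 for sex in iWAT, 698 for sex by depot, 2783 for the gate in iWAT, 586 for gate by depot and 1594 for the depot in females. By DESeq2 they were 829 for sex in iWAT, and 200 and 599 for gate by sex in pgWAT and iWAT. With gates summed per mouse sex in iWAT gave 267. In DPP4- cells alone sex in iWAT gave 313, the depot in males 718 and in females 299. In DPP4+ cells alone sex gave 417 in pgWAT and 852 in iWAT, and sex by depot 97. In males alone the gate in pgWAT gave 1052. In females alone it gave 879, the gate in iWAT 912 and gate by depot 146. Thinned to a common depth the depot in females gave 480. With the mouse as replicate block gate by sex in pgWAT gave 202, and with library totals as the only scaling gate by sex in iWAT gave 771. Other than the calls given with each comparison, the block changed no call of the 10 genes.

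With each mouse left out in turn the counts ranged from 1080 to 1223 (sex in pgWAT), 438 to 640 (sex in iWAT), 213 to 422 (sex by depot), 1469 to 1619 (gate in pgWAT), 1527 to 1855 (gate in iWAT), 211 to 365 (gate by depot), 1189 to 1522 (depot in males), 523 to 763 (depot in females), 101 to 162 (gate by sex in pgWAT) and 231 to 410 (gate by sex in iWAT). Of 194 such fits of the genes called, 28 were not called.

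The design limits these values. Samples of a mouse are not independent, and the labels give no day or batch. All cells were digested, so no level before digestion is known.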
